A study of Rattus norvegicus with 4 samples.

Results

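Autotaxin and the genes around its product, lysophosphatidic acid, were followed as 10 genes in cultured rat bone marrow cells. They are the autotaxin gene Enpp2, the related ectoenzymes Enpp1 and Enpp3, the receptors Lpar1, Lpar2, Lpar3, Lpar4 and Lpar6, and the lipid phosphatases Ppap2a and Ppap2b, now called Plpp1 and Plpp3. The members were taken by gene symbol out of 18217 named genes on the array. Of the 10 genes, 9 have a row in the authors' table of targets, with 10 probes in all, and Lpar4 was found through its RefSeq accession in the table of spots. With 3 probes left out of the authors' table, the genes have 13 probes among 30367. The set was put together with the fall of Enpp2 at high density already known, so the differences between the 2 groups are given below as a description of the members, without p-values.

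The cells were from bone marrow of Wistar rats aged 6 weeks, named endothelial progenitor cells by the submitters. They were cultured for 15 days at high density (2 arrays) or at regular density (2 arrays), and regular density served as the control. No genotype, transgene or added agent is named for either group. Total RNA was labelled with Cy3 and hybridised to Agilent one-colour arrays, and the number of arrays limits the precision. The design speaks of 2 independent experiments with different high density cells but names no animals, so the p-values below rest on a spread between arrays that may be partly technical.

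Autotaxin is a secreted enzyme that cuts choline from lysophosphatidylcholine outside the cell and so makes lysophosphatidic acid, a signalling lipid. The lipid acts on G protein-coupled receptors, among them those encoded by the Lpar genes, and drives calcium and growth signals. Lipid phosphatases on the cell surface remove its phosphate and end the signal. Fat cells and stromal cells are known sources of autotaxin.

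Promoter sequences from RefSeq (build GRCr8) were at hand for 6 of the 10 genes: Enpp3, Lpar3, Lpar4, Lpar6, Ppap2a and Ppap2b. Those of the 4 whose probes were well above background and differed past the threshold are shown, since Lpar6, Ppap2a and Ppap2b were all higher at high density and Enpp3 was lower. Each runs 5′ to 3′ on the plus strand, from 250 bases before the gene's start to 50 after it, and capitals mark a match to a motif that was searched for.
Lpar6, chr15:54825860-54826159: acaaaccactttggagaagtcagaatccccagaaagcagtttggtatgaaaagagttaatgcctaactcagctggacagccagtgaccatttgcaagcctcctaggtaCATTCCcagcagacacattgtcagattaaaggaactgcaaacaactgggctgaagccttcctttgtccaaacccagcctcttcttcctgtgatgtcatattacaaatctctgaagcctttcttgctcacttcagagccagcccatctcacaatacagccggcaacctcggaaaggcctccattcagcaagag
Ppap2a, chr2:46172327-46172626: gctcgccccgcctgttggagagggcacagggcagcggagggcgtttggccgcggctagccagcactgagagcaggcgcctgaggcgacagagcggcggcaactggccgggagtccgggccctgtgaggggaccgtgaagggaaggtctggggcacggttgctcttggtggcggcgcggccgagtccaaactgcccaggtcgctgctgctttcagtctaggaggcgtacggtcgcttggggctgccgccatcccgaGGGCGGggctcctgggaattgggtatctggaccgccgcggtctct
Ppap2b, chr5:125155750-125156049: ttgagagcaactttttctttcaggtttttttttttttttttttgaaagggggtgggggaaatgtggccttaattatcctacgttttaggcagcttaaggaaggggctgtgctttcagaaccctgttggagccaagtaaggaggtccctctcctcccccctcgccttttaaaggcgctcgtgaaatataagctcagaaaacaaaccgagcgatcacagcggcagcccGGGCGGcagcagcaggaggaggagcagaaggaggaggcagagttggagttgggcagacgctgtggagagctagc
Enpp3, chr1:22382739-22383038: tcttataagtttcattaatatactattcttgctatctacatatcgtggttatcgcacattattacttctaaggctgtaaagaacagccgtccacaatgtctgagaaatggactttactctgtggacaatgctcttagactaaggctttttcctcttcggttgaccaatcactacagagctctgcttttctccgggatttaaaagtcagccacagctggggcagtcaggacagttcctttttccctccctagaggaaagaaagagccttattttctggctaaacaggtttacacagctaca
The motifs were the GC box GGGCGG, the TATA box TATAAA, the TEAD site GGAATG, the AP-1 site TGANTCA and the CArG box bound by serum response factor, on both strands. Ppap2a and Ppap2b each hold 1 GC box, which 34.9% of 27457 promoters of this length hold. Lpar6 holds 1 TEAD match on the opposite strand, as CATTCC, and 13.9% of promoters hold this motif. The Enpp3 window holds none of the motifs, and its GC content was 41.3%, against 70.0% for Ppap2a, 51.3% for Ppap2b and 47.3% for Lpar6. A match is a description of these letters only.

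The 75th percentile of probe intensity was 355 to 462 over the 4 arrays, and 53.9% to 61.2% of probes lay above background, taken as the 99th percentile of 153 negative control spots. Negative control spots had a median of 13.4 and 10.5 on the arrays with replicate number 1, and of 1.93 and 1.99 with number 2, so differences within each number are given beside the group difference. Over 13676 features tested with limma, 4232 (30.9%) passed an adjusted p of 0.05, of which 1779 (13%) were higher and 2453 (17.9%) lower at high density. Those counts were 1393 and 578 without any scaling of the arrays and 1204 and 3248 under median scaling, as the median of all features moved from -0.08 log2 to 0.03 and -0.20. The total was 2411 without high density replicate 1. Regular density replicates 1 and 2 differed by a median of 0.17 log2 and the high density replicates by 0.12, against 0.29 between the group means.

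Among 8 endothelial markers, 4 or 5 lay above background on each array. Tek and Cd34 were under background on all 4 arrays and Pecam1 on 3 of them. Of the 4 that could be tested, the receptor Flt1 rose by 1.59 log2 and Egfl7 by 0.66, and Cdh5 and Vwf did not pass the threshold. All 7 stromal markers and all 6 macrophage markers lay above background on every array. Among the macrophage markers C1qa (2.77) and Emr1 (0.45) rose and Cd14 (-0.38) fell. Of 3 lymphocyte markers tested, Cd8a rose by 2.48 and Gzmb by 2.88, while Cd3e was under background on all 4 arrays. Of 3 osteoblast markers tested, only Alpl rose. Of 5 smooth muscle markers tested, 5 rose at high density (6 on the array). Among them, Cnn1 lay under background at regular density, with 10.3 and 17.5. Its mean scaled log2 value was 9.16 at high density and 3.80 at regular density. Cnn1 was thus bright enough to test only through the high density arrays. The summed scaled intensity of the smooth muscle list was 143971 to 148973 at high density and 14705 to 15301 at regular density. The part of a change in cell mixture in the differences below was not tested.

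Enpp2 was much weaker on the high density arrays. At high density its probe read 15.1 (replicate 1) and 43.8 (replicate 2), and at regular density 139.6 and 176. Both high density arrays lie under both regular density arrays, and high density replicate 1 lay under its background of 34.5 whereas the other 3 arrays lay above theirs. The scaled log2 difference, high minus regular density, was -2.71 (SE 0.41, n = 2 arrays per group), a 6.56-fold lower intensity as measured. The probe's mean scaled log2 value was 4.63 at high density and 7.34 at regular density, so it passed the limit of 5.62 for testing through the regular density arrays. In bulk RNA, fewer cells that make a transcript and less of it per cell cannot be told apart. Of 6 adipocyte markers, the 3 that could be tested (Pparg, Fabp4 and Cfd) rose at high density. Over all 6, the summed scaled intensity was 2334 to 2436 at high density against 1422 to 1496 at regular density. Most of that sum was Cfd, with 1516 to 1669 at high density and 999 to 1029 at regular density. Adipoq and Plin1 were under background on all 4 arrays, and Lep on all but regular density replicate 1. Of the 7 stromal markers, 2 rose and 1 fell. The part of either cell type in the difference of Enpp2 was not tested.

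The 2 high density arrays do not agree on the size. Their scaled values differed by 1.28 log2, against 0.04 between the regular density arrays. The difference was -3.33 within replicate number 1 and -2.09 within number 2. With high density replicate 1 raised to its background the difference was -2.12, a 4.33-fold lower intensity, and without that array it was -2.07. The authors' normalized log2 values were 3.77 and 5.16 at high density and 7.38 and 7.38 at regular density. Enpp2 has 1 probe, printed once, so no second probe checks it. The probe (Entrez gene 84050) is placed on chromosome 7 from 91301822 to 91296429 by the authors, whose table gives positions without an assembly. Its ends lie 5394 bases apart, where the other listed member probes span 60 bases.

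**Figure D1:**
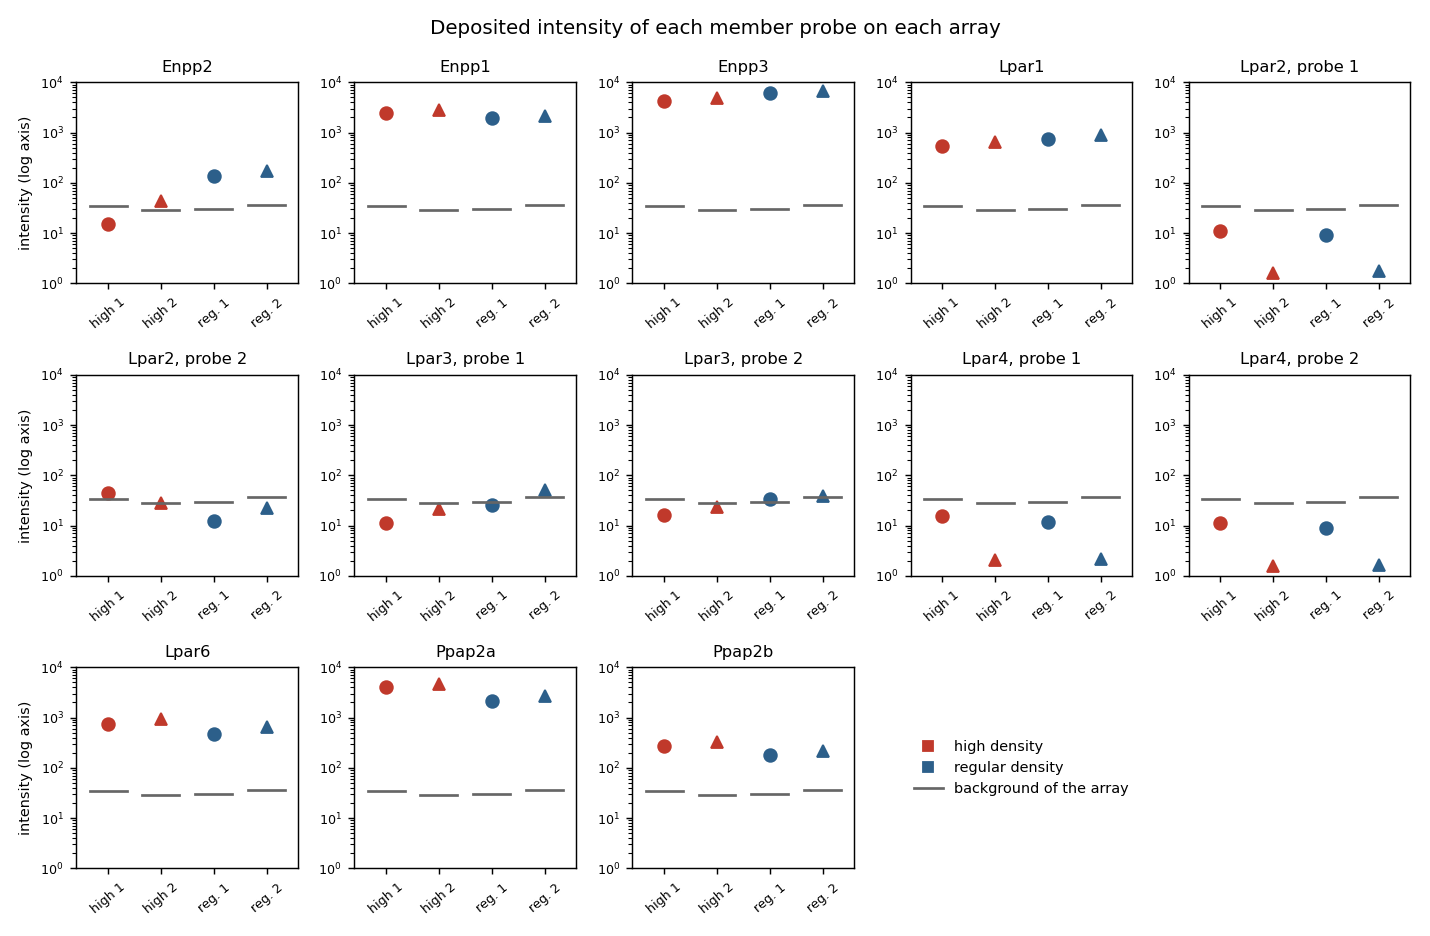
Deposited intensity (log axis) of the 13 member probes on each array, high density in red and regular density in blue, with circles for replicate number 1, triangles for number 2 and a grey line at the background of each array. Enpp2 lies at 139.6 and 176 at regular density and at 15.1 and 43.8 at high density, the lower of these under background, and both Lpar4 probes lie under background on all 4 arrays.

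Enpp1 makes pyrophosphate from extracellular ATP and so restrains mineral deposition. Its probe was printed 10 times on each array, which shows the error of a single spot. The mean over the 10 spots was 2502 (SD 174) and 2870 (SD 74.6) on the high density arrays, and 1990 (SD 56.0) and 2139 (SD 65.5) on the regular density arrays. Spot means were higher on both high density arrays, but the scaled difference was only 0.27 log2 (SE 0.11), or 0.21 and 0.34 within replicate numbers. Enpp1 was the 1 tested member that did not pass the threshold, though it passed in 5 of 15 alternatives.

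Enpp3 is an ectoenzyme that degrades extracellular nucleotides and is known on basophils and mast cells as CD203c. Its 10 spots averaged 4309 (SD 268) and 4825 (SD 129) at high density, and 6097 (SD 261) and 6572 (SD 153) at regular density. The highest spot on the high density arrays read 4945 and the lowest on the regular density arrays 5557, so the unscaled spots of the groups do not overlap. Spots on the same array are technical repeats, so this shows the error of a spot and not the spread between cultures. Arrays of the groups did not overlap for 69.8% of all features tested either. The difference was -0.58 log2 (SE 0.11), with -0.62 and -0.54 within replicate numbers. With the authors' normalized values it was -0.41. Both probes map to chromosome 1, that of Enpp1 (Entrez gene 85496) at 21287338 to 21287397 and that of Enpp3 (Entrez gene 54410) at 21159733 to 21159792. Thus of the 3 related ectoenzymes, Enpp2 and Enpp3 were lower at high density and Enpp1 was slightly higher.

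**Figure D2:**
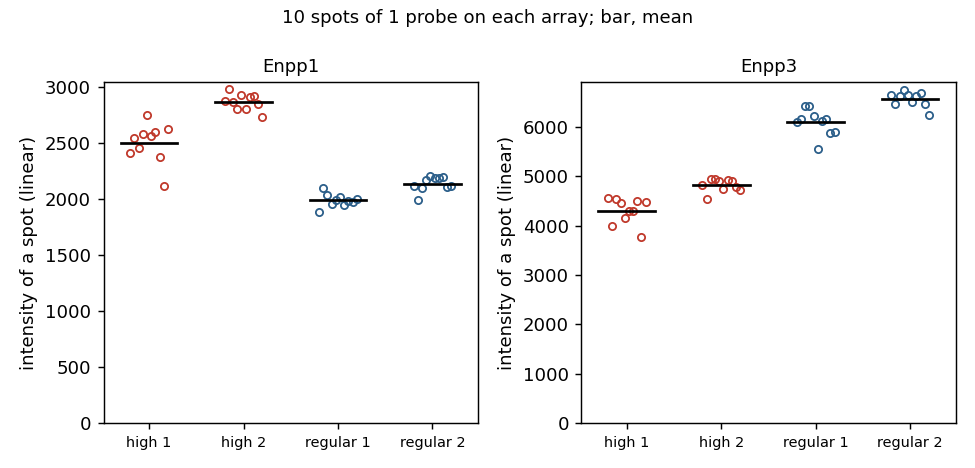
Intensity (linear axis from 0) of each of the 10 spots of the Enpp1 and the Enpp3 probe on each array, high density in red and regular density in blue, with a bar at the mean. Enpp3 spots reach at most 4945 at high density and are at least 5557 at regular density, whereas Enpp1 spots start at 2118 at high density and reach 2207 at regular density. Spots on the same array are technical repeats, and their intensities are unscaled.

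Among the receptors, Lpar1 and Lpar6 were clearly measured and differed in opposite directions. Lpar1, the widely expressed receptor first known as Edg2, read 542 and 663 at high density and 755 and 893 at regular density. Both high density arrays lay lower. The difference was -0.56 log2 (SE 0.09), with -0.60 and -0.52 within replicate numbers. Lpar6, a receptor of the P2Y-like branch that is known for its role in hair growth, read 742 and 924 at high density and 482 and 644 at regular density. Here both high density arrays lay higher, by 0.47 log2 (SE 0.10), or 0.50 and 0.43 within replicate numbers. The probe of Lpar1 (Entrez gene 116744) lies on chromosome 5 from 76450907 to 76450848 and that of Lpar6 (Entrez gene 691774) on chromosome 15 from 53877189 to 53877248.

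The other 3 receptors were too dim to test. For Lpar3, first known as Edg7, both probes read lower at high density. The first read 11.5 and 21.0 at high density and 25.1 and 50.8 at regular density, and the second 15.98 and 23.5 against 33.0 and 38.4. High density lay under background on both arrays for either probe, while regular density lay above it on 1 of 2 arrays for the first probe and on both for the second. The second probe was thus at least 1.23-fold lower at high density. No fold is given for the first probe. Lpar2 went the other way in its brighter probe, with 44.7 and 28.4 at high density, just above background, and 12.6 and 22.3 at regular density, under background. Against background that leaves a bound of 1.00-fold, so no difference is stated. The other Lpar2 probe and both Lpar4 probes lay under background on all 4 arrays, from 1.54 to 15.2, so no difference in them was detectable. These 3 are the probes that the authors' table leaves out. Lpar5, not one of the 10 genes, was under background on all arrays as well, at 12.7 to 15.9.

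Both lipid phosphatases that break down extracellular lysophosphatidic acid were higher at high density. Ppap2a read 3974 and 4676 at high density and 2143 and 2724 at regular density. It showed the highest difference among the tested members, 0.73 log2 (SE 0.09), a 1.66-fold higher intensity, with 0.77 and 0.69 within replicate numbers. Ppap2b read 268 and 326 at high density and 180.2 and 213 at regular density, a difference of 0.49 log2 (SE 0.11), with 0.45 and 0.52 within numbers. In neither do the groups overlap. A further probe that the authors' table describes as the Ppap2a protein, without a symbol, read 100.2 and 119 against 49.2 and 64.1, a difference of 0.85. It lies on chromosome 2 from 44218497 to 44218556, and the Ppap2a probe (Entrez gene 64369) from 44247554 to 44247613. The Ppap2b probe (Entrez gene 192270) lies on chromosome 5 from 126196071 to 126196130. Ppap2c, the third enzyme of this kind and not a member, fell by 0.50 log2 (SE 0.13, adjusted p = 0.0300 with limma).

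Of the 7 members bright enough to test, 6 differed past the threshold, 3 higher and 3 lower, where 30.9% of all features did. The groups do not overlap for any of the 7, as for 69.8% of features (28% with high density higher and 41.7% with it lower). The members were chosen with this contrast in view, so nothing is read from either count. All 7 kept their sign under every alternative that gave a value. Leaving out 1 array could not reverse it, as the groups do not overlap. The count was 2 without scaling, which left Enpp2 and Ppap2a. It was 4 with either high density array left out and under median scaling, each of which ended the calls of Lpar6 and Ppap2b. It was 7, with Enpp1 added, with the authors' normalized log2 values (the series matrix holds the same), under quantile normalization, with regular density replicate 1 left out and with the replicate number as a block.

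**Figure D3:**
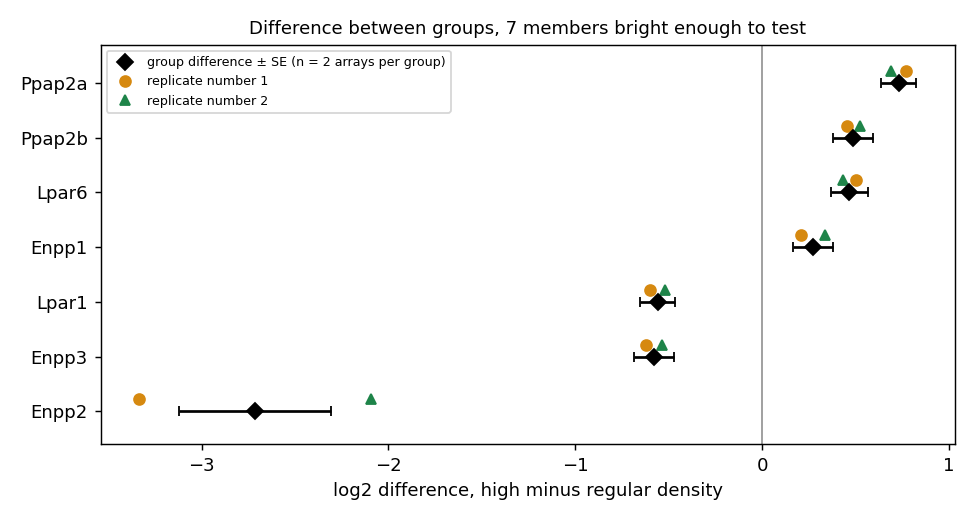
Scaled log2 difference, high minus regular density, of the 7 tested members (diamonds, with SE as bars, n = 2 arrays per group) and within replicate numbers 1 (circles) and 2 (triangles). Enpp2 stands at -2.71 with its 2 replicate numbers at -3.33 and -2.09, and the other 6 lie between -0.58 and 0.73 with close pairs.

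**Figure D4:**
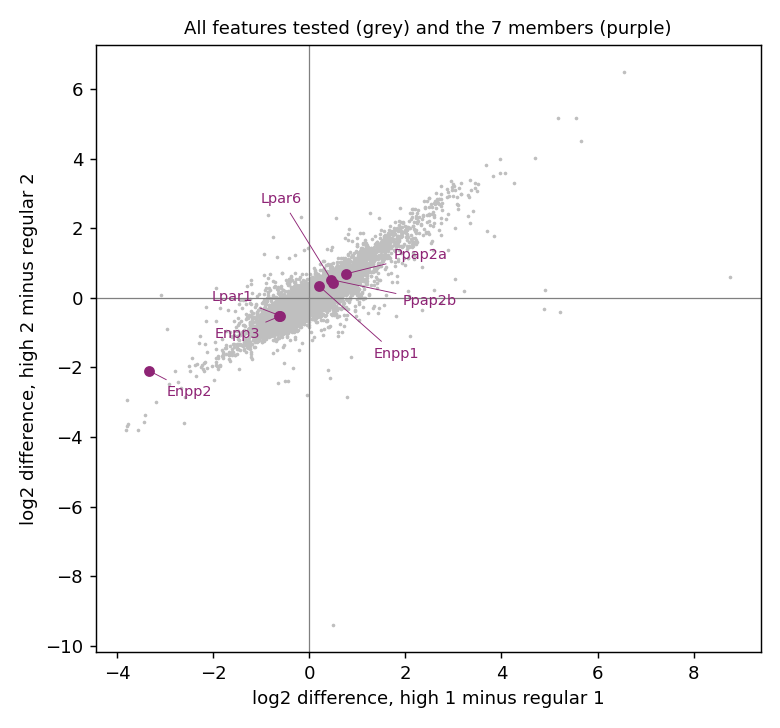
Scaled log2 difference between high and regular density within replicate number 1 (x axis) and number 2 (y axis) for 13676 features tested (grey) and the 7 tested members (purple). Enpp2 lies at -3.33 and -2.09, and the other members lie within the main cloud.

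Over the 4 arrays, the named genes whose centred values lay closest to those of Enpp2 were Adcy8, LOC100359980, Mlana, Flrt2 and Fam180a, out of 10636 compared. Their distances were 0.56 to 0.76 log2 (Euclidean, each gene centred on its own mean). Adcy8, an adenylyl cyclase, read 24.0 and 43.6 at high density and 154 and 174 at regular density. Mlana, a melanosome protein, read 321 and 493 against 1965 and 2489. All 5 were lower at high density, as their closeness to Enpp2 requires. On high density replicate 1, Enpp2, Adcy8 and Flrt2 lay under background, so the distances and their order rest in part on values that are not above it. For Ppap2a, at distances of 0.03 to 0.05, 4 of the 5 nearest genes were Fcgr3a, Sgca, Bace2 and LOC679536.

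Genes around the pathway were read from 8 lists of 92 genes chosen by role, of which 56 could be tested. The lists were chosen with earlier results of these data known, so their counts and p-values are a description and no independent support. Of these 56, 14 rose and 8 fell at high density, where 13% of all features rose and 17.9% fell. The median of all features was -0.08 log2.

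Of 5 other lysophospholipid receptors tested, 2 rose and 0 fell, with a median of 0.35. Both bind sphingosine 1-phosphate, the sister lipid of lysophosphatidic acid. S1pr3 read 204 and 224 at high density and 66.8 and 83.5 at regular density, a rise of 1.41 log2 (SE 0.14, adjusted p = 0.00113 with limma). S1pr1 read 647 and 782 against 301 and 385 and rose by 0.96 (SE 0.10, adjusted p = 0.00117). S1pr2 showed a difference of -0.09 (adjusted p = 0.534). In the list of sphingosine 1-phosphate metabolism, 6 genes were tested and 2 passed the threshold. The kinase Sphk1 rose by 0.72 (SE 0.14, adjusted p = 0.0113 with limma). The ceramidase Asah1 fell by 0.70 (SE 0.12, adjusted p = 0.00797 with limma). That list had a median of -0.06, or 0.04 without scaling.

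Of 8 tested phospholipases that release lysophospholipids or their precursors, 2 rose and 3 fell, with a median of -0.23. Pla1a, which makes lysophosphatidylserine, rose by 0.73 log2 (SE 0.11, adjusted p = 0.00505 with limma), with 347 and 397 at high density against 194 and 223. The calcium-independent Pla2g6 fell by 0.57 (SE 0.12, adjusted p = 0.0155) and the cytosolic Pla2g4a by 0.47 (SE 0.10, adjusted p = 0.0159). Named after their values were seen, Pla2g7 had a change of 0.42 and Pla2g15 one of -0.46. The count of 5 was 1 without scaling, 2 with high density replicate 1 left out and 3 with replicate 2 of that group left out.

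Of 12 tested acyltransferases and lipid kinases, 1 rose and 1 fell, with a median of -0.05 (0.06 without scaling). The acyltransferase Lpcat3 fell by 0.48 log2 (SE 0.10, adjusted p = 0.0141 with limma). Its name refers to lysophosphatidylcholine and not to lysophosphatidic acid. The diacylglycerol kinase Dgki rose by 0.62 (SE 0.17, adjusted p = 0.0356 with limma). That count was 0 when high density replicate 1 was left out, and 1 when the second array of either group was. Dgki also lost its call under median scaling and with no variance trend, and Lpcat3 without scaling. Of 8 other lipid phosphatases, 0 rose and 2 fell, with a median of -0.13. They were Ppap2c and Lpin3, a phosphatidate phosphatase, which fell by 0.65 (SE 0.10, adjusted p = 0.00519). Neither passed without scaling, and Ppap2c did not pass without high density replicate 2 or regular density replicate 1. Of the other Enpp genes only Enpp4 could be tested, with a difference of -0.22 (adjusted p = 0.231).

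Of 8 tested transcripts that lysophosphatidic acid is known to induce, 4 rose and 1 fell, with a median of 0.25. The growth factor Hbegf read 777 and 887 at high density and 242 and 260.1 at regular density, a rise of 1.62 log2 (SE 0.11, adjusted p = 2.97e-04 with limma). The matrix signal Cyr61 rose by 0.80 (SE 0.10, adjusted p = 0.00327). The 1 that fell was Ankrd1, by 1.41 (SE 0.21, adjusted p = 0.00567), with 1 of 2 high density arrays above background. Its mean scaled log2 value was 5.07 at high density and 6.48 at regular density. Ankrd1 thus passed the limit for testing through the regular density arrays. The size of its fall rests in part on a value under background. Many other signals induce the genes of this list.

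Of 8 tested genes listed for extracellular nucleotides, phosphate and pyrophosphate, 4 rose and 0 fell, with a median of 0.56. Those that rose include Spp1 (0.46 log2), named after its values were seen. Entpd2, which removes phosphate from ATP, read 2115 and 2291 at high density and 525 and 547 at regular density, a rise of 1.93 log2 (SE 0.12, adjusted p = 2.29e-04 with limma). Nt5e, which turns AMP into adenosine, rose by 1.57 (SE 0.10, adjusted p = 2.53e-04). The alkaline phosphatase Alpl, which degrades pyrophosphate, rose by 1.46 (SE 0.18, adjusted p = 0.00250).

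**Figure D5:**
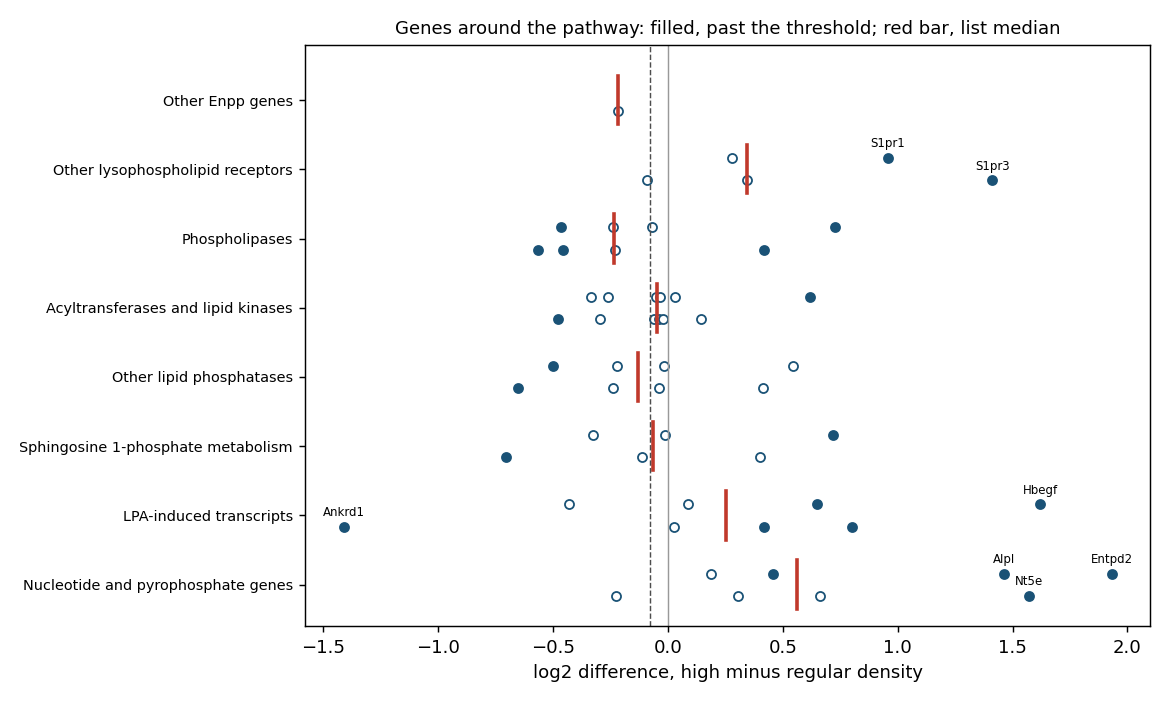
Scaled log2 difference, high minus regular density, of 56 tested genes in 8 lists (1 circle per gene, filled when past the threshold), with the list median as a red bar and the median of all features, -0.08, as a dashed line. The members themselves are not plotted. Entpd2 at 1.93 is the highest and Ankrd1 at -1.41 the lowest.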

How the data were processed

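Per the file headers, the table of spots holds intensity on a linear scale after all steps of the scanner software, which the submitters' processing notes name as Agilent Feature Extraction 11.0.1.1. The authors' table of targets holds raw intensity and normalized log2 values. Its log2 values recur in the deposited series matrix, and the method behind them is not given in the sources used here. Of 44254 spots per array, 1377 control spots were left out, and log2 intensities of repeated spots were averaged.

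Arrays were scaled to a common 75th percentile. Testing was limited to probes whose scaled log2 values averaged over 5.62, the median probe, and a gene was read from its probe of highest mean. Current symbols were taken by Entrez IDs and accessions (GRCr8 annotation), which left 8823 probes unnamed. The test between groups was that of limma 3.58.1, run in R 4.3.3 (moderated variances with a trend, two-sided, Benjamini-Hochberg over all features, threshold 0.05). Tables were made with Python 3.11.15 and pandas 2.3.3. On simulated data with the same 13676 features, 93.0% of changes of 1 log2 and 100% of changes of 2 log2 were recovered. Of the features called there, 4.46% were false. Only 100 features were changed by each size, and the noise was drawn independently for each value. The real arrays have many more changes and shared deviations, so these rates may not hold for them.

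The members and lists were chosen with earlier results of these data known. Named are all members with Lpar5 and Ppap2c, and up to 3 genes per list past the threshold with the smallest p. Also named are the 5 genes closest to Enpp2 and to the tested member with the largest rise. Alternatives kept the features tested, except where the filter or the probe rule was the choice changed. The labels do not state that the replicate number pairs samples across groups. Of the planned pathway lists, 1 is not reported here, nor are 1 gene of another list, 1 marker and 1 of the closest genes.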

Additional observations from a re-analysis of the deposited data

How the results depend on the processing

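The difference of Enpp2 kept its direction under 14 alternatives, from -2.07 without high density replicate 1 to -3.35 without high density replicate 2, and under a stricter filter (mean log2 above 7.38) it was too dim to test. No member reversed. The 17 list genes named by rule, all past the threshold, kept their direction throughout. Their call was kept in 238 repeats and lost in 14. S1pr2 and Enpp4, which did not pass, are not among them. The 17 genes were named because they passed the threshold, and some alternatives leave the size of a change as it was. The count therefore does not measure how firm the calls are. Without scaling, 1971 features changed, of the members 2 passed, and the counts were 1 for phospholipases, 1 for acyltransferases and lipid kinases and 0 for other lipid phosphatases. Leaving out 1 array each gave 2411 to 3984 changed features, 2 to 5 phospholipases, and 0 to 3 acyltransferases and kinases. Without a variance trend, 1 acyltransferase or kinase passed, and with the stricter filter 1 gene of sphingosine 1-phosphate metabolism did.

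With the replicate number as a replicate block, 7008 features changed, with 5 acyltransferases and kinases and 5 other lipid phosphatases. Deviations of arrays with the same number correlated at r = 0.37 across 13676 features, which are not independent, and such arrays also had similar negative control levels. The labels do not say whether the number marks an experiment, and 2 pairs are too few to settle a pairing. The block was therefore kept as an alternative.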

Other observations

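Further genes of the lists were too dim on average to test but exceeded background on both arrays at high density and on 0 at regular density. They were picked out after their values were seen. The diacylglycerol kinase Dgkg read 72.8 and 82.3 at high density and 13.3 and 27.8 at regular density. Entpd1, the ectonucleotidase CD39, read 43.9 and 63.0 against 13.1 and 22.6. Ptgs2, the inducible cyclooxygenase, read 42.2 and 42.0 against 14.7 and 32.6. Background was 28.2 on high density replicate 2 and 36.9 on regular density replicate 2. The Ptgs2 reading of 32.6 lies between them, so its pattern depends on these unequal limits. Of all probes, 61.2% lay above background on the first of these arrays and 55.7% on the second. The share of all probes with this pattern was not counted.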
